A study of Canis lupus familiaris and Dasypus novemcinctus and Ornithorhynchus anatinus with 3 samples.

Results

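Gene expression in the endometrium of a pregnant dog (Canis lupus familiaris) was compared with that of a pregnant armadillo (Dasypus novemcinctus), gene by gene and across whole pathways and gene families. Genes were paired by symbol. A symbol had to occur once in each species' table, which held for 8854 genes, and had to reach 2 CPM in both libraries, CPM being the read count scaled to a common library total, which left 6639 of the 8854. Of the remainder, 380 reached that level in dog only, 862 in armadillo only and 973 in neither. The gene nearest inside this limit was AP3S2, at 2.04 CPM in armadillo, and the nearest outside was KLHL3, at 1.98 CPM in dog (both values before the scaling described below). Each species was represented by 1 mRNA sequencing library from tissue labelled pregnant endometrium, prepared from column-purified RNA with DNase treatment. The labels used here name no treatment, genotype, stage of pregnancy, age or number of animals for either species. With 1 library a side there is no replicate spread, so folds are given without a test, and species, animal, stage, dissection and library cannot be told apart.

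The endometrium is the mucosa that lines the uterus: a surface epithelium with glands, a fibroblast-rich stroma, blood vessels and resident leukocytes, lying on a wall of smooth muscle. During pregnancy its epithelium secretes for and attaches to the placenta, while the stroma and vessels are remodelled around it. Dog and armadillo are both eutherian mammals but build different placentas: in the dog, trophoblast lies against intact maternal vessels (an endotheliochorial placenta), and in the armadillo it is bathed in maternal blood (a haemochorial placenta).

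The dog library held 13625468 reads assigned to genes and the armadillo library 13218476, and the compared genes took 59.4% and 58.8% of them. Levels are given below as normalised CPM, that is, CPM scaled so that the median gene of the 6639 has the same level in both species; before this step dog CPM exceeded armadillo CPM by 0.321 on the log2 scale at the median. A gene was called higher in a species at 4-fold or more. By this rule 728 genes (11.0%) were higher in dog and 874 (13.2%) in armadillo, 24.1% in all, and 3139 (47.3%) lay within 2-fold. These percentages are the background against which the counts of each list below are read. The armadillo side held the larger differences: 207 genes were at least 16-fold higher there against 104 in dog, and 42 were at least 64-fold higher against 10. Levels across the 6639 genes had a Spearman correlation of 0.491 between the species, a description over genes that share the 2 libraries. Intervals are exact 95% intervals of the ratio of the read counts and cover counting error only. Without the scaling step the counts would be 952 in dog and 690 in armadillo.

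**Figure D1:**
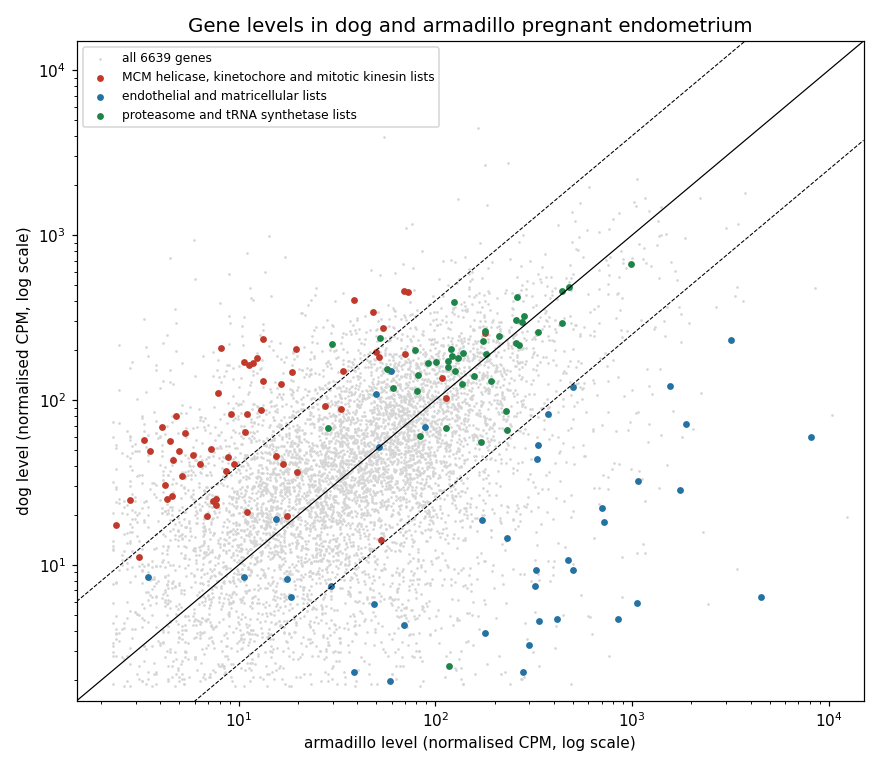
Level of each of the 6639 genes in armadillo (x axis, normalised CPM, log scale) and dog (y axis, the same unit); the solid line marks equal levels and the dashed lines 4-fold. Red points, the replication helicase, kinetochore and mitotic kinesin lists, lie mostly above the upper dashed line; blue points, the endothelial and matricellular lists, lie mostly below the lower one; green points, proteasome subunits and tRNA synthetases, lie along the diagonal.

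The tissue label was checked against markers of the cell types that such a sample could hold. Of 8 epithelial markers 4 could be compared, and 3 were higher in dog, EPCAM (an epithelial adhesion molecule) standing at 150.2 CPM in dog and 8.62 in armadillo and ESRP1 and GRHL2 also being called; together the 4 summed to 2235 CPM in dog and 624.8 in armadillo. Of 9 stromal markers 3 could be compared and summed to 582.6 CPM in dog and 8896 in armadillo, with COL3A1 and LUM higher in armadillo and HAND2 higher in dog. For smooth muscle 1 of 6 markers, TAGLN, could be compared, at 19.4 CPM in dog and 12294 in armadillo. The 2 of 7 endothelial markers compared, PLVAP and ESAM, summed to 69.01 CPM in dog and 8621 CPM in armadillo, and the 2 of 7 leukocyte markers, CSF1R and PTPRC, to 11.36 and 143.5 CPM. Of 9 trophoblast markers 3 could be compared, with DLX5 higher in dog and TFAP2A and TFAP2C higher in armadillo. Neither the 4 red blood cell markers nor the 5 uterine hormone receptor and patterning markers (ESR1, PGR, HOXA10, HOXA11, FOXA2) gave a gene that met the rule, so the uterine identity of the tissue could not be checked on them. In bulk tissue a larger share of cells of a type and more RNA per cell cannot be told apart, and the part of these marker differences in the results below was not tested.

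The 6639 genes were read through 129 lists of pathways, complexes and gene families, of which 120 held at least 5 compared genes. The median fold of a list reached 2-fold in favour of dog in 17 lists and in favour of armadillo in 36, while 45 lists had a median within 0.5 of 0 on the log2 scale. The dog-side lists included those of DNA replication, mitosis, desmosomes and cholesterol synthesis, besides nuclear pore, ATP synthase and prostaglandin genes. The armadillo-side lists included those of matrix, muscle, vessels, integrins, several signalling pathways and immune cells, besides the glycogen, lysosome, clock and microtubule lists. Core machinery for translation, protein folding, protein degradation and RNA decay lay between them.

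**Figure D2:**
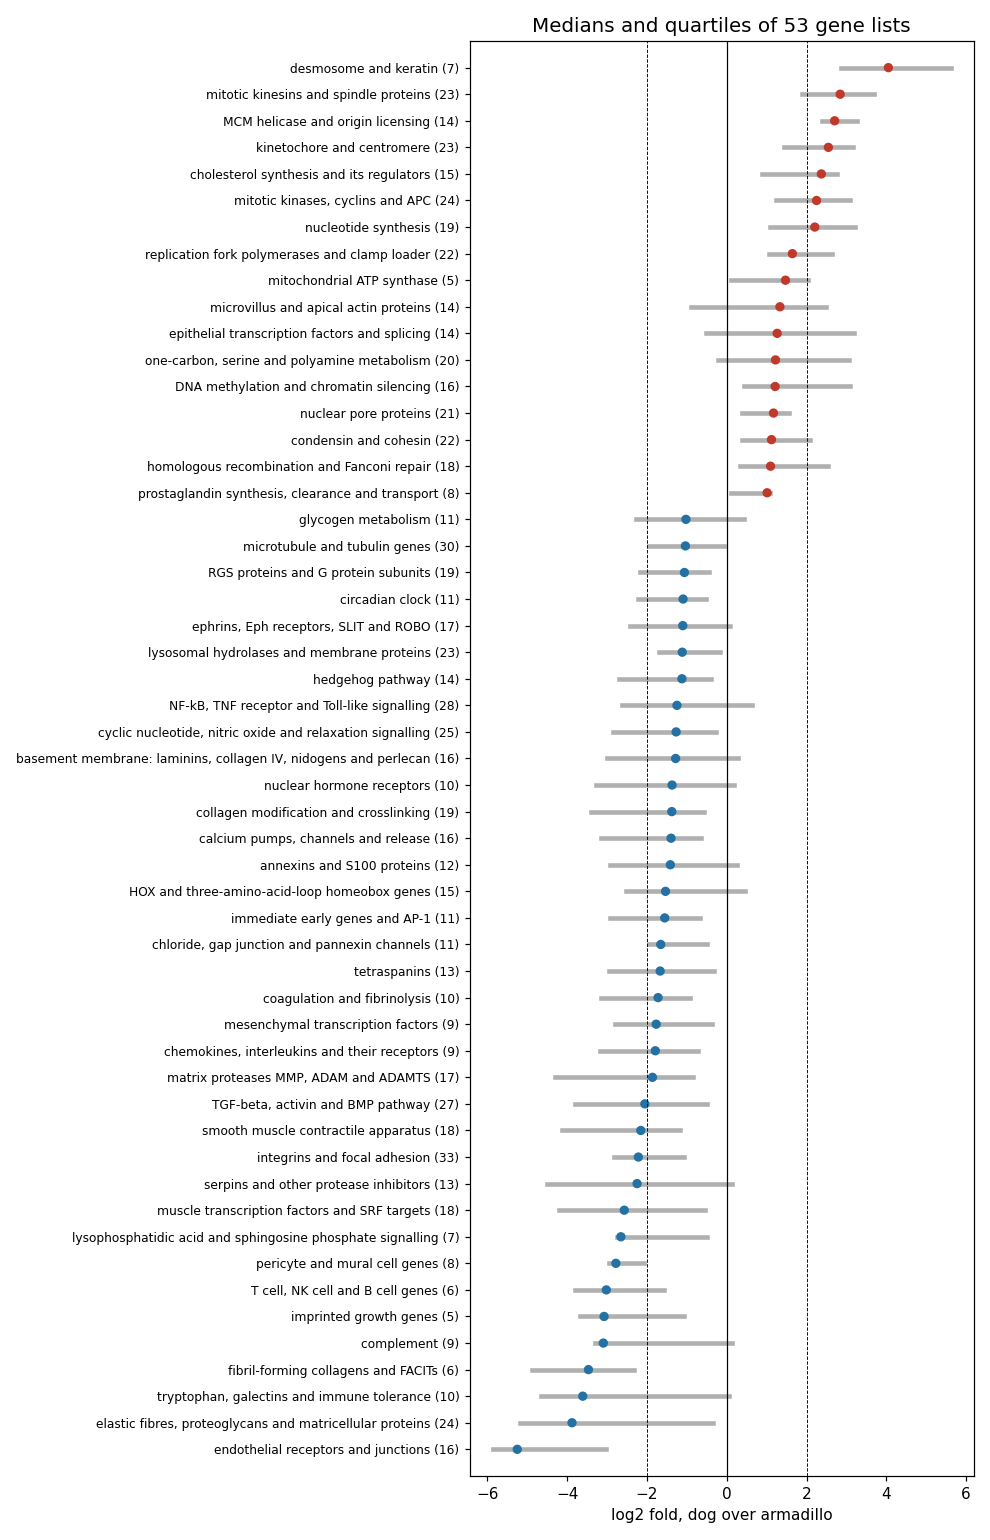
Median log2 fold (dog over armadillo) of the 53 lists whose median reached 2-fold in either direction, with the number of compared genes in parentheses; grey bars span the quartiles of each list and dashed lines mark 4-fold. The desmosome and keratin list lies farthest towards dog at a median of 16.6-fold, and the endothelial list farthest towards armadillo at 38.1-fold.

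The machinery that copies DNA leaned to dog, most of all at the loading of the helicase. Origins of replication are loaded with the MCM helicase, which unwinds DNA ahead of the polymerases once kinases and the GINS complex have switched it on. Of the 14 genes of the licensing list, 12 passed 4-fold with dog higher and none with armadillo higher, with a median of 6.52-fold. All 6 subunits of the helicase ring lay on the dog side: MCM4 stood at 405 CPM in dog and 38.6 in armadillo, MCM5 at 341 CPM in dog and 47.9 in armadillo, MCM7 at 457 CPM in dog and 68.8 in armadillo, MCM6 at 450.1 CPM in dog and 72.2 in armadillo, MCM2 at 273 CPM in dog and 54.2 in armadillo and MCM3 at 190.5 CPM in dog and 70.4 in armadillo, the last 2.705-fold and short of the limit. The loader CDC6 stood at 110.1 CPM in dog and 7.86 in armadillo, the activation factor MCM10 at 80.2 CPM in dog and 4.82 in armadillo and the GINS subunit GINS4 at 57.3 CPM in dog and 3.298 in armadillo, each more than 10-fold apart. CDC7, the kinase that fires origins, differed 1.85-fold, while its activating partner DBF4 was 6.41-fold higher in dog.

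At the fork itself, 9 of 22 polymerase, primase, clamp loader and fork protection genes were higher in dog and 1 in armadillo. The leading-strand polymerase was high in dog through both its catalytic subunit POLE (285 CPM in dog and 29.8 in armadillo) and its partner POLE2 (49.2 CPM in dog and 2.96 in armadillo). DNA ligase LIG1, which seals the fragments of the lagging strand, stood at 202 CPM in dog and 14.9 in armadillo, 13.6-fold higher in dog, interval 11.7 to 15.9. The exception was POLD4, a small subunit of the lagging-strand polymerase that is dispensable for its core activity, at 6.501 CPM in dog and 29.4 in armadillo. The single-strand binding subunit RPA1 stood at 94.8 CPM in dog and 193 in armadillo and the clamp loader subunit RFC1 at 71.1 CPM in dog and 118 in armadillo. Both also serve DNA repair, and neither was called. RFC4 and RFC5, partners of RFC1 in the clamp loader, were 6.65-fold and 8.97-fold higher in dog.

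The supply of nucleotides followed the same side. Ribonucleotide reductase makes deoxyribonucleotides, and its S-phase subunit RRM2 stood at 599 CPM in dog and 13.5 in armadillo, which is 44.3-fold, interval 37.9 to 52.1, while the constant subunit RRM1 stood at 375 CPM in dog and 57.5 in armadillo, 6.52-fold. Of the 19 genes of the list 11 were higher in dog and none in armadillo. In purine synthesis the entry enzyme PPAT stood at 48.00 CPM in dog and 2.54 in armadillo and PFAS at 304 CPM in dog and 28.2 in armadillo, and in pyrimidine synthesis UMPS stood at 192 CPM in dog and 18.9 in armadillo. PAICS, another purine enzyme, stood at 239 CPM in dog and 249 in armadillo, and the 2 IMP dehydrogenases IMPDH1 and IMPDH2, which lead to guanine nucleotides, were within 2-fold as well.

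The mitotic motors had the highest median of the cell cycle lists, 7.18-fold towards dog. Among the kinesins and spindle proteins that build the spindle and divide the cell at cytokinesis, 16 of 23 were higher in dog, none in armadillo, and every one of the 23 lay on the dog side of equality. KIF2C, a microtubule depolymerase of the centromere, stood at 206 CPM in dog and 8.12 in armadillo, 25.4-fold higher in dog, interval 20.7 to 31.4. KIF11, which pushes the spindle poles apart, stood at 235 CPM in dog and 13.3 in armadillo, and the cytokinesis regulators ECT2, RACGAP1 and ANLN were 14.1-fold, 14.5-fold and 10.4-fold higher in dog. CKAP5, a microtubule polymerase that cells also use between divisions, was the member nearest to equality at 255 CPM in dog and 179 in armadillo.

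The kinetochore joins chromosomes to the spindle, and 13 of its 23 genes were higher in dog, with NUF2 at 68.9 CPM in dog and 4.06 in armadillo, ZWILCH at 49.1 CPM in dog and 3.55 in armadillo and the scaffold CASC5 at 56.7 CPM in dog and 4.48 in armadillo. Of the mitotic kinases, cyclins and anaphase-promoting complex genes 13 of 24 were higher in dog: CDK1, the kinase that drives entry into mitosis, stood at 175 CPM in dog and 13.2 in armadillo, its partner cyclin CCNA2 at 60.5 CPM in dog and 11.8 in armadillo, PLK1 at 255 CPM in dog and 29.5 in armadillo and the anaphase activator CDC20 at 276 CPM in dog and 26.8 in armadillo. Within the anaphase-promoting complex the subunits did not share a side, CDC27 being 7.29-fold higher in dog and ANAPC5 standing at 55.3 CPM in dog and 113 in armadillo. The checkpoint kinase BUB1 at 136 CPM in dog and 108 in armadillo and the checkpoint protein BUB3 at 103 CPM in dog and 113 in armadillo were near equality, whereas BUB1B stood at 82.5 CPM in dog and 9.13 in armadillo.

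Chromosome structure divided by function. Among 22 condensin and cohesin genes 6 were higher in dog, led by the mitotic condensin subunit NCAPH at 196 CPM in dog and 7.44 in armadillo, a 26.3-fold difference, and NCAPG at 266 CPM in dog and 24.1 in armadillo. NCAPH2, its counterpart in the other condensin complex, stood at 97.2 CPM in dog and 101 in armadillo. The cohesin ring subunit SMC3 stood at 199 CPM in dog and 183 in armadillo, and the cohesin regulators PDS5B, WAPAL, NIPBL and STAG2, which act outside mitosis too, were within 2-fold. In the silencing list 7 of 16 genes were higher in dog. UHRF1, which copies DNA methylation at the fork, stood at 289 CPM in dog and 13.4 in armadillo and the remodeller HELLS at 90.9 CPM in dog and 5.67 in armadillo. The 2 alternative catalytic subunits of Polycomb complex PRC2 stood on opposite sides, EZH2 at 81.8 CPM in dog and 8.37 in armadillo and EZH1 at 10.8 CPM in dog and 112 in armadillo, the latter 10.4-fold higher in armadillo.

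The list of G1 genes did not follow. It joins activators of the cycle with inhibitors, and the G1/S genes CCNE1 and CDC25A were counted in the mitotic kinase list. Of 15 G1 cyclin, CDK inhibitor and RB-E2F genes, 1 was higher in dog, the repressor E2F7 at 28.8 CPM in dog and 2.37 in armadillo, and 1 in armadillo, E2F6 at 8.799 CPM in dog and 43.97 in armadillo. The median of this list was 1.05-fold. Outside the comparison, 3 more of its genes passed 2 CPM in dog only and none in armadillo only. Over all paired genes that split was 380 and 862, where 153 of the 862 are at 0 in dog. Genes at 0 in armadillo are not listed and could not be paired. Cyclin CCND2 stood at 118 CPM in dog and 78.04 in armadillo and the RB relative RBL1 at 38.1 CPM in dog and 42.7 in armadillo. Repair genes lay between: in homologous recombination and Fanconi repair 6 of 18 were higher in dog, among them FANCD2 at 157 CPM in dog and 22.3 in armadillo and EXO1 at 29.9 CPM in dog and 2.79 in armadillo, and in mismatch and excision repair 3 of 21. Of 21 nuclear pore genes 4 were higher in dog, led by NUP210 at 118 CPM in dog and 15.6 in armadillo and RAE1 at 262 CPM in dog and 36.7 in armadillo, while TPR stood at 550.5 CPM in dog and 490.5 in armadillo.

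**Figure D3:**
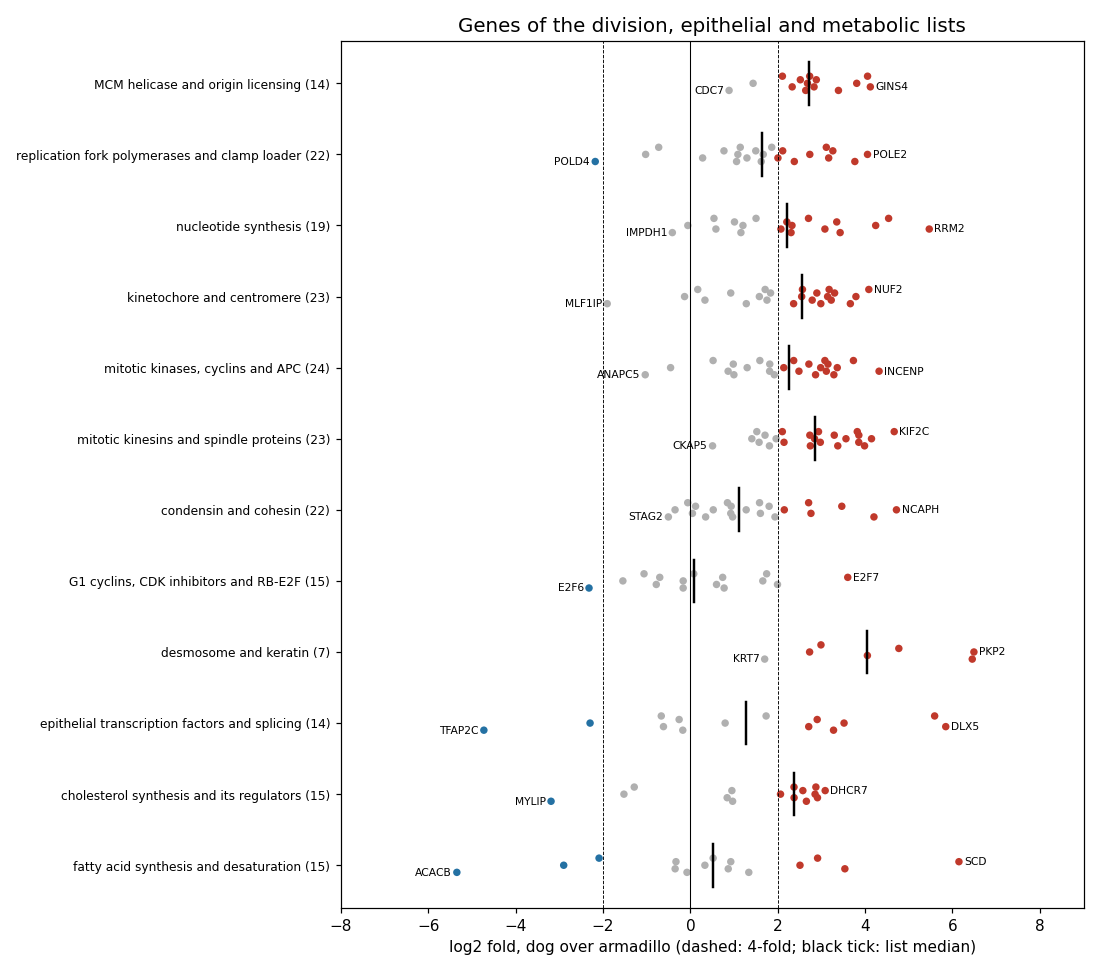
Log2 fold (dog over armadillo, x axis) of every compared gene in 12 lists, one row a list with its number of genes; red points are at least 4-fold higher in dog, blue points at least 4-fold higher in armadillo, grey points neither, and the black tick is the median. The rows for replication and mitosis sit to the right of 0, the G1 row is centred on it, and the fatty acid row spreads from ACACB on the left to SCD on the right.

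Desmosome and keratin genes had the highest dog-side median of the lists, though only 7 of the 51 genes of the list could be compared. Outside the comparison, 2 more passed 2 CPM in dog only and 3 in armadillo only, 2 of the 3 being listed at 0 in dog. Desmosomes rivet epithelial cells together and anchor their keratin filaments. All 7 compared genes lay on the dog side and 6 were called: the plaque protein desmoplakin DSP stood at 4477 CPM in dog and 164 in armadillo, plakophilin PKP2 at 540.0 CPM in dog and 6.003 in armadillo (89.96-fold higher in dog, interval 71.2 to 115), envoplakin EVPL at 215 CPM in dog and 2.45 in armadillo (87.6-fold) and the desmosomal cadherin DSG2 at 316 CPM in dog and 39.8 in armadillo. Keratin KRT7 of simple epithelia stood at 1955 CPM in dog and 601 in armadillo, 3.25-fold and not called. The epithelial markers given above lay on the same side; their part was not tested.

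Other epithelial structures were split. Of 14 tight junction and polarity genes 2 were higher in dog, the polarity kinase PRKCI at 160.3 CPM in dog and 9.98 in armadillo and the basolateral determinant LLGL2 at 140.3 CPM in dog and 7.44 in armadillo, and 2 in armadillo, the barrier protein CLDN1 at 9.52 CPM in dog and 139 in armadillo and AMOT at 6.501 CPM in dog and 36.95 in armadillo. In the adherens junction the catenins CTNNA1 (679 CPM in dog and 897 in armadillo), CTNNB1 (653 CPM in dog and 1252 in armadillo) and CTNND1 (220.2 CPM in dog and 162 in armadillo) were within 2-fold, while the cadherins were not: CDH6 stood at 169.5 CPM in dog and 2.87 in armadillo, a 58.98-fold difference towards dog, and CDH11 and CDH13 were 5.26-fold and 9.24-fold higher in armadillo. Among microvillus and apical actin genes 7 of 14 were higher in dog and 2 in armadillo. The myosin motors illustrate it, MYO5C standing at 210.4 CPM in dog and 3.38 in armadillo against MYO1C at 367 CPM in dog and 2677 in armadillo. The bundling protein plastin PLS3 was 5.34-fold higher in dog, and the membrane linker moesin MSN 8.63-fold higher in armadillo.

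Transcription factors that specify epithelium were called in both directions. KLF5, a factor of proliferating epithelia, stood at 387 CPM in dog and 8.03 in armadillo (48.2-fold, interval 39.4 to 59.7), and DLX5, a homeobox factor, at 248 CPM in dog and 4.31 in armadillo. GRHL2 and OVOL2, which hold cells in the epithelial state, were 11.5-fold and 9.69-fold higher in dog, as were the splicing factors ESRP1 (6.54-fold) and ESRP2 (7.48-fold). TFAP2C and TFAP2A lay on the other side at 1.904 CPM in dog and 50.5 in armadillo and 3.94 CPM in dog and 19.4 in armadillo. The median of the list was 2.402-fold towards dog, but over the 7 genes that reach 10 CPM in both species the median log2 fold was -0.179. The factors that oppose the epithelial state were higher in armadillo: ZEB1 stood at 4.27 CPM in dog and 408 in armadillo, 95.6-fold apart, interval 74.9 to 124, and ZEB2 at 13.99 CPM in dog and 78.04 in armadillo. HAND2, a stromal factor, was the 1 gene of the mesenchymal list called towards dog, at 22.1 CPM in dog and 4.06 in armadillo, and NR2F2, a stromal orphan receptor, stood at 159 CPM in dog and 206 in armadillo.

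Cholesterol synthesis was higher in dog along most of its length. The pathway runs from acetyl units through mevalonate and squalene to sterols and is switched on by low membrane sterol. Of 15 genes 9 were higher in dog. The early enzymes ACAT2 and HMGCS1 stood at 325 CPM in dog and 62.7 in armadillo and 175 CPM in dog and 33.8 in armadillo, the last being 5.18-fold, interval 4.66 to 5.76. In the middle of the pathway squalene epoxidase SQLE stood at 364 CPM in dog and 61.05 in armadillo, but the kinases MVK and PMVK and the synthase FDFT1 were not called. In the final steps CYP51A1, NSDHL and DHCR7 were 7.51-fold, 6.301-fold and 8.49-fold higher in dog. The sterol-sensing brake INSIG1, itself a target of the sterol response, stood at 241 CPM in dog and 33.3 in armadillo. MYLIP, a ligase that removes the LDL receptor and is induced by excess sterol, was the 1 gene called in the opposite direction, at 11.8 CPM in dog and 108 in armadillo. ABCG1, the sterol exporter, was also higher in armadillo at 6.17 CPM in dog and 122 in armadillo.

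Fatty acid synthesis held extremes in both directions. ATP citrate lyase ACLY, which makes cytosolic acetyl-CoA, stood at 2722 CPM in dog and 235 in armadillo, and the desaturase SCD at 779.6 CPM in dog and 10.99 in armadillo, 70.9-fold higher in dog, interval 59.7 to 84.97. The 2 acetyl-CoA carboxylases parted: ACACA, the form that feeds synthesis, stood at 200.1 CPM in dog and 79.2 in armadillo, and ACACB, the mitochondrial form that restrains fatty acid oxidation, at 9.72 CPM in dog and 395 in armadillo, 40.7-fold higher in armadillo, interval 34.5 to 48.3. Long-chain acyl-CoA synthetases did the same, ACSL4 being 7.53-fold higher in dog and ACSL5 7.47-fold higher in armadillo with ACSL1 at 47.1 CPM in dog and 59.2 in armadillo. In beta-oxidation the electron carriers ETFA and ETFDH were 5.05-fold and 7.37-fold higher in dog, whereas the peroxisomal oxidase ACOX3 stood at 4.203 CPM in dog and 71.6 in armadillo. Triglyceride and phospholipid synthesis agreed, with 16 of 24 genes within 2-fold and 1 called in each direction, DGAT2 (57.1 CPM in dog and 6.09 in armadillo) towards dog and AGPAT4 (1.84 CPM in dog and 83.3 in armadillo) towards armadillo. The ceramide desaturase DEGS1 was the farthest member of the sphingolipid list, at 21.3 CPM in dog and 502 in armadillo.

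Folate, sulfur amino acid and arginine metabolism gave some of the larger dog-side folds. The transsulfuration enzymes CBS and CTH, which turn homocysteine into cysteine, stood at 477 CPM in dog and 11.4 in armadillo and 427 CPM in dog and 14.5 in armadillo, 41.8-fold and 29.4-fold. The mitochondrial arginase ARG2, which feeds ornithine towards polyamines and proline, stood at 738 CPM in dog and 17.2 in armadillo (42.8-fold, interval 37.2 to 49.4). Cytosolic SHMT1, which loads folate with carbon from serine, stood at 139 CPM in dog and 6.003 in armadillo, and the mitochondrial folate enzyme MTHFD1L at 249.7 CPM in dog and 37.4 in armadillo. The polyamine genes SRM, SMS, AMD1 and OAZ1 were not called. Among 16 genes of branched-chain amino acid breakdown 3 were higher in dog, MCCC1, MCCC2 and PCCB, at 5.39-fold, 10.5-fold and 6.43-fold, and HIBADH was 8.61-fold higher in armadillo.

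Membrane carriers were called in both directions. Of 17 genes of amino acid carrier families 3 were higher in dog and 4 in armadillo. In the same order, the calls numbered 3 and 3 of 8 for glucose and monocarboxylate carriers and 3 and 3 of 13 for organic anion, nucleoside and vitamin carriers. They were 3 and 3 of 28 for metal handling and 4 and 1 of 24 for mitochondrial carriers, both below the 24.1% of all genes. SLC7A2, a carrier of arginine and lysine (dog gene ENSCAFG00000006944, armadillo gene ENSDNOG00000011346), gave the largest dog-side fold of the whole comparison: 11069 reads in dog and 53 in armadillo, 162-fold, interval 124 to 217. The neutral amino acid exchanger SLC1A4 stood at 309.7 CPM in dog and 3.298 in armadillo and SLC7A8 at 161 CPM in dog and 28.2 in armadillo. SLC7A7, which releases arginine at the basolateral membrane, stood at 2.36 CPM in dog and 126 in armadillo. The neutral amino acid carrier SLC43A1 and its relative SLC43A3, which is not itself an amino acid carrier, were 6.19-fold and 5.86-fold higher in armadillo. SLC3A2, the heavy chain that several of these carriers share, stood at 139 CPM in dog and 125 in armadillo. The glucose carrier SLC2A1 stood at 704 CPM in dog and 120.4 in armadillo, against its relative SLC2A10 at 2.63 CPM in dog and 32.4 in armadillo. Among vitamin carriers SLC5A6, which takes up biotin and pantothenate, stood at 1647 CPM in dog and 130.3 in armadillo, and the thiamine carriers SLC19A2 and SLC19A3 were 15.3-fold and 17.4-fold higher in dog. The folate receptor FOLR1 lay on the armadillo side at 10.1 CPM in dog and 54.6 in armadillo, and the folate carrier SLC46A1 stood at 50.2 CPM in dog and 42.9 in armadillo. For metals, the zinc importer SLC39A2 stood at 281 CPM in dog and 10.4 in armadillo and the iron importer SLC11A2 at 220.4 CPM in dog and 41.7 in armadillo, while the iron exporter SLC40A1 stood at 8.799 CPM in dog and 269.6 in armadillo and the zinc carrier SLC39A13 at 7.49 CPM in dog and 139 in armadillo. The pump that acidifies compartments had 10 of 13 subunits uncalled but not its tissue-restricted ones, with ATP6V1B1 at 93.2 CPM in dog and 5.16 in armadillo and ATP6V1C2 at 59.95 CPM in dog and 5.41 in armadillo beside their general paralogues ATP6V1B2 at 151 CPM in dog and 83.1 in armadillo and ATP6V1C1 at 34.01 CPM in dog and 28.2 in armadillo.

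Sugar chains are built by families of parallel enzymes, and here the choice of paralogue differed. Of the enzymes that start mucin-type chains, GALNT3 was 23.6-fold higher in dog (245 CPM in dog and 10.4 in armadillo) and GALNT11 4.33-fold, while GALNT2 and GALNT10 were 8.52-fold and 8.13-fold higher in armadillo. Among sialyltransferases of the ST3GAL family, ST3GAL6 stood at 164 CPM in dog and 8.71 in armadillo, and ST3GAL2, ST3GAL3 and ST3GAL4 were 10.4-fold, 8.32-fold and 19.7-fold higher in armadillo. In total 4 of 25 such genes were higher in dog and 5 in armadillo. Hexosamine and glycosaminoglycan synthesis was called in both directions, 3 of 28 genes towards dog and 6 towards armadillo. GFPT1 and GNPNAT1, which help make the sugar donor, stood at 254 CPM in dog and 39.7 in armadillo and 60.1 CPM in dog and 3.97 in armadillo. GFPT2, PGM3 and UAP1, which also act in making the donor, were not called towards dog. Several enzymes that extend or modify chondroitin and heparan chains were higher in armadillo. CSGALNACT1 stood at 7.29 CPM in dog and 144 in armadillo, DSE at 5.58 CPM in dog and 71.3 in armadillo and EXTL3 at 28.8 CPM in dog and 349 in armadillo. CHSY1, which extends chondroitin, went the other way at 35.1 CPM in dog and 5.16 in armadillo.

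The lysosome was armadillo-sided in its general proteins, with a median of 2.17-fold over 23 genes, though 17 of the 23 were not called. The carboxypeptidase CTSZ went the other way: it stood at 3935 CPM in dog and 54.9 in armadillo, 71.7-fold higher in dog, interval 66.4 to 77.6. Legumain LGMN, the asparagine-specific protease, stood at 40.9 CPM in dog and 858 in armadillo, and prosaposin PSAP, the precursor of sphingolipid activators, at 401 CPM in dog and 3674 in armadillo. The membrane proteins LAMP1, LAMP2 and CD63 were between 3-fold and 4-fold higher in armadillo, and CTSB and CTSH were not called.

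Fibrous matrix was higher in armadillo. Fibrillar collagens give the stroma its tensile strength, and the list joined them with fibril-associated collagens (FACITs). All 6 compared collagens of this list lay on the armadillo side and 5 were called. Only COL3A1 and COL5A2 among the 6 are fibrillar. COL3A1 stood at 479 CPM in dog and 8520.0 in armadillo (17.8-fold, interval 17.4 to 18.2) and COL5A2 at 127 CPM in dog and 571 in armadillo. The fibril-associated COL12A1 stood at 84.97 CPM in dog and 584 in armadillo. Of 19 genes that fold and crosslink collagen 9 were higher in armadillo, none in dog. The transglutaminase TGM2 stood at 1.904 CPM in dog and 489.6 in armadillo, a dog count of 29 reads (257-fold, interval 179 to 384), the procollagen protease ADAMTS2 at 24.3 CPM in dog and 1161 in armadillo and the lysyl oxidase LOXL2 at 64.5 CPM in dog and 823 in armadillo. The general folding enzymes of this list agreed, P4HB standing at 1481 CPM in dog and 1397 in armadillo and PLOD3 at 133 CPM in dog and 135 in armadillo, and the collagen chaperone SERPINH1 stood at 277 CPM in dog and 1314 in armadillo. The smooth muscle, endothelial and stromal markers given above lay on the same side as these collagens, and their part was not tested.

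The matricellular, proteoglycan and elastic fibre list had a median of 14.7-fold towards armadillo, with 16 of 24 genes called and none in dog. Tenascin TNC, an adhesion-modulating glycoprotein (dog gene ENSCAFG00000003426, armadillo gene ENSDNOG00000017690), gave the largest fold of the comparison: 97 reads in dog and 53441 in armadillo, 709-fold, interval 581 to 875. Periostin POSTN stood at 4.73 CPM in dog and 852 in armadillo, the hyaluronan-binding proteoglycan VCAN at 28.3 CPM in dog and 1744 in armadillo and thrombospondin THBS1 at 122 CPM in dog and 1557 in armadillo. Fibulin FBLN1, a glycoprotein of elastic fibres and basement membranes, stood at 230.2 CPM in dog and 3166 in armadillo. The genes MFAP1, MFAP2, MFAP3 and MFAP5, which share a name but are not all microfibril components, were not called, MFAP5 standing at 51.7 CPM in dog and 51.7 in armadillo.

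Basement membranes were split by chain. Laminins are trimers of an alpha, a beta and a gamma chain. LAMB3 and LAMA3, chains of the laminin that anchors epithelium, stood at 248 CPM in dog and 12.8 in armadillo and 543 CPM in dog and 105 in armadillo, 19.4-fold and 5.17-fold higher in dog, and LAMA1, an early epithelial chain, stood at 18.8 CPM in dog and 4.65 in armadillo. LAMA4 and LAMB2, chains of vessel and muscle basement membrane, stood at 174 CPM in dog and 802 in armadillo and 245 CPM in dog and 1467 in armadillo, and LAMC3 at 10.7 CPM in dog and 322 in armadillo, each higher in armadillo. The chain common to most laminins, LAMC1, stood at 583 CPM in dog and 503 in armadillo, and the linkers NID1 and NID2 at 181 CPM in dog and 127 in armadillo and 196 CPM in dog and 208 in armadillo, all near equality.

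Cells grip this matrix through integrins and focal adhesions, and 19 of 33 such genes were higher in armadillo and 3 in dog. The common beta chain ITGB1 stood at 271 CPM in dog and 1289 in armadillo, the fibronectin-binding chain ITGA5 at 71.6 CPM in dog and 1213 in armadillo and ITGA9 at 4.99 CPM in dog and 444 in armadillo. The linkers talin TLN1 and vinculin VCL were 7.79-fold and 10.02-fold higher in armadillo, and filamin FLNC, the striated and smooth muscle form, stood at 9.39 CPM in dog and 3394 in armadillo (361-fold, interval 307 to 429). The 3 genes on the dog side were ITGA2 (46.4 CPM in dog and 10.8 in armadillo), a collagen receptor chain, ITGB8 (28.4 CPM in dog and 5.83 in armadillo) and the tensin TNS4 (184 CPM in dog and 6.595 in armadillo), whose relative TNS1 was 7.87-fold higher in armadillo. The adaptors BCAR1 and NEDD9 were within 2-fold. Among matrix proteases 8 of 17 were higher in armadillo and none in dog, including ADAMTS1, a versican-cleaving protease induced by progesterone in the ovary, at 486 CPM in dog and 3432 in armadillo. Of 13 protease inhibitors 7 were higher in armadillo and 1 in dog, with a median of 4.75-fold towards armadillo: SERPING1, SERPINB9 and SERPINE2 were 22.9-fold, 19.4-fold and 10.5-fold higher in armadillo, and SPINT1, an inhibitor on epithelial surfaces, was 6.55-fold higher in dog.

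Contractile genes were armadillo-sided with one large exception. Of 18 genes 10 were higher in armadillo and 2 in dog. Transgelin TAGLN, an actin-binding protein of smooth muscle, was 632-fold higher, interval 564 to 711, the myosin light chain kinase MYLK stood at 40.1 CPM in dog and 1497 in armadillo and caldesmon CALD1 at 66.1 CPM in dog and 954 in armadillo. The light chain MYL6B lay in the opposite direction at 994 CPM in dog and 14.2 in armadillo, 69.96-fold higher in dog, as did the small heat shock protein CRYAB. Serum response factor SRF, which switches on muscle genes, stood at 53.6 CPM in dog and 187 in armadillo, and 10 of 18 genes in the list of its partners and targets were higher in armadillo, CTGF standing at 11.8 CPM in dog and 1057 in armadillo, CYR61 at 55.6 CPM in dog and 1197 in armadillo and FHL1 at 11.8 CPM in dog and 1165 in armadillo. The SRF coactivators MKL1 and MKL2 were not called.

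Signals that set muscle tone lay on the same side. Of 25 cyclic nucleotide genes 10 were higher in armadillo and 1 in dog. NPR1, the natriuretic peptide receptor that makes cyclic GMP, stood at 5.78 CPM in dog and 2444 in armadillo (423-fold, interval 343 to 527) and its relative NPR2 at 8.67 CPM in dog and 218 in armadillo. Adenylyl cyclases ADCY3, ADCY4 and ADCY9 were 11.97-fold, 48.1-fold and 7.17-fold higher in armadillo. The phosphodiesterases divided, PDE4B being 14.2-fold higher in armadillo and PDE3B 14.9-fold higher in dog. Calcium entry and release followed, with 7 of 16 genes higher in armadillo: the cation channel TRPC4 stood at 3.81 CPM in dog and 627 in armadillo, the plasma membrane pump ATP2B4 at 8.14 CPM in dog and 337 in armadillo and the store-operated channel ORAI1 at 20.8 CPM in dog and 198 in armadillo. The Golgi pump ATP2C2, typical of secretory epithelium, was the 1 called towards dog, at 24.5 CPM in dog and 2.62 in armadillo, beside its general paralogue ATP2C1 at 163 CPM in dog and 197 in armadillo.

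Endothelial genes were higher in armadillo without exception in direction: all 16 lay on that side and 14 were called. PLVAP, which forms the diaphragms of fenestrated capillaries, stood at 59.8 CPM in dog and 8123 in armadillo (136-fold, interval 127 to 145), the lectin CLEC14A at 5.91 CPM in dog and 1064 in armadillo, the phosphatase PTPRB at 32.2 CPM in dog and 1076 in armadillo and the transcription factor ERG at 3.87 CPM in dog and 178 in armadillo. Of 8 pericyte and mural cell genes 6 were called, all towards armadillo, including KCNJ8 at 2.82 CPM in dog and 75.8 in armadillo. The angiogenic ligands did not share this: placental growth factor PGF was 4.19-fold higher in dog, VEGFC stood at 49.8 CPM in dog and 15.4 in armadillo and PDGFC at 90.9 CPM in dog and 93.9 in armadillo. Of the neuropilin co-receptors, NRP1 stood at 8.67 CPM in dog and 394 in armadillo and NRP2 at 295 CPM in dog and 487 in armadillo. Hypoxia-response genes were called in both directions, 4 towards dog (EGLN3, PDK1, ARNT2 and SLC2A1) and 4 towards armadillo (EPAS1, STC1, DDIT4 and BNIP3L), EGLN3 standing at 152 CPM in dog and 4.48 in armadillo and the hypoxia factor EPAS1 at 155 CPM in dog and 1383 in armadillo.

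**Figure D4:**
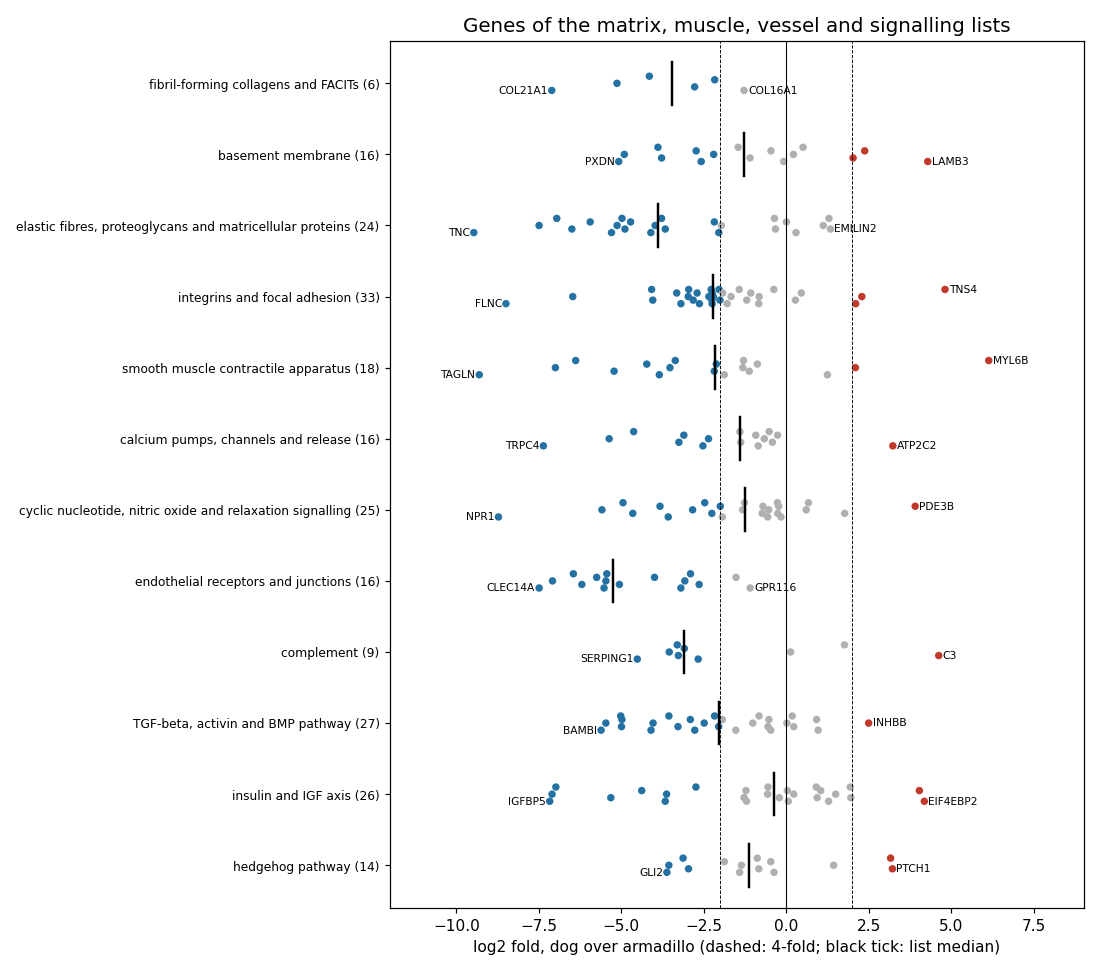
Log2 fold (dog over armadillo, x axis) of every compared gene in 12 lists, one row a list with its number of genes; blue points are at least 4-fold higher in armadillo, red points at least 4-fold higher in dog, grey points neither, and the black tick is the median. The endothelial row lies wholly to the left of 0, and single red points (LAMB3, TNS4, MYL6B, C3, INHBB) stand apart from the rest of their rows.

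Plasma cascades were divided at C3. Complement is triggered by C1 and converges on C3. The protease subunits C1R and C1S stood at 51.5 CPM in dog and 499 in armadillo and 70.7 CPM in dog and 699 in armadillo and their inhibitor SERPING1 at 61.00 CPM in dog and 1398 in armadillo, each higher in armadillo, while C3 stood at 217 CPM in dog and 8.88 in armadillo, 24.5-fold higher in dog, interval 20.2 to 30.03. In coagulation 4 of 10 genes were higher in armadillo and none in dog. PROCR, the endothelial receptor of protein C, stood at 2.82 CPM in dog and 765 in armadillo, and the plasminogen activator PLAT at 28.9 CPM in dog and 751 in armadillo.

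The TGF-beta family was armadillo-sided at the level of ligands, binding proteins and some receptors, while the SMADs named below were not called. Of 27 genes 14 were higher in armadillo and 1 in dog. Among ligands, BMP2, a decidual signal in rodents, stood at 2.63 CPM in dog and 85.2 in armadillo and BMP6 at 18.5 CPM in dog and 126 in armadillo, while the activin subunit INHBB went against them at 87.9 CPM in dog and 15.6 in armadillo. Antagonists FST, CHRD, NBL1 and BAMBI were 17.2-fold, 7.52-fold, 9.75-fold and 48.99-fold higher in armadillo. Receptors TGFBR1, TGFBR3 and ACVRL1 were 4.52-fold, 31.9-fold and 44.3-fold higher in armadillo, and ACVR1, ACVR2A and BMPR2 were within 2-fold. The signal transducers SMAD1, SMAD2 and SMAD3 and the inhibitory SMAD6 and SMAD7 were not called, that is, less than 4-fold apart. Among them SMAD7 stood at 46.5 CPM in dog and 46.1 in armadillo. The BMP target ID1 stood at 16.2 CPM in dog and 191 in armadillo.

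In the insulin-like growth factor axis the binding proteins differed more than the kinases. IGFBP1, a secreted binding protein, stood at 338 CPM in dog and 20.7 in armadillo, and IGFBP2, IGFBP3, IGFBP4, IGFBP5 and IGFBP6 were 127-fold, 137-fold, 20.9-fold, 144-fold and 39.9-fold higher in armadillo. The insulin receptor INSR stood at 40.7 CPM in dog and 504 in armadillo and the adaptor GRB10, which dampens it, at 22.6 CPM in dog and 288 in armadillo. Downstream, PIK3CA, RICTOR, TSC1 and FOXO1 were within 2-fold and MTOR stood at 344 CPM in dog and 122 in armadillo, short of the limit. EIF4EBP2, a translational repressor that MTOR inactivates, was 18.1-fold higher in dog.

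In the other growth factor pathways the shares of called genes lay near those of all genes. Of 17 EGF pathway genes 10 were within 2-fold, and ERBB3, the kinase-poor receptor of neuregulins, was the 1 called towards dog at 157 CPM in dog and 9.39 in armadillo, with the receptor inhibitor LRIG1 at 55.03 CPM in dog and 447 in armadillo. Of the FGF receptors FGFR1 stood at 23.2 CPM in dog and 259.6 in armadillo and FGFR4 at 4.47 CPM in dog and 2.62 in armadillo. In the MAP kinase cascade 5 of 45 genes were higher in dog and 8 in armadillo: the terminal kinase MAPK3 stood at 4.92 CPM in dog and 595 in armadillo (121-fold, interval 96.2 to 154), and of the stress kinases MAPK9 and MAPK13 were 8.04-fold and 7.86-fold higher in dog and MAPK12 41.7-fold higher in armadillo. The kinase ARAF was within 2-fold.

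Hedgehog signalling runs from the receptor PTCH1 through SMO to the GLI factors. PTCH1 was 9.26-fold higher in dog at 178 CPM in dog and 19.2 in armadillo, while GLI2 and GLI3 were 12.3-fold and 7.82-fold and the co-receptor CDON 11.8-fold higher in armadillo; SMO stood at 29.7 CPM in dog and 76.4 in armadillo. WNT genes were called 3 towards dog (DACT1, AXIN2 and VANGL1) and 4 towards armadillo (ROR2, DKK1, PRICKLE1 and PRICKLE2), of 28. AXIN2, a feedback target of canonical WNT signalling, stood at 44.1 CPM in dog and 9.05 in armadillo and the secreted inhibitor DKK1 at 6.698 CPM in dog and 84.4 in armadillo, while LGR4, GSK3B and TCF7L2 were near equality. In the Hippo pathway YAP1 stood at 72.2 CPM in dog and 71.7 in armadillo and WWTR1 at 122 CPM in dog and 101 in armadillo, both near equality. Of the 24 genes of the Hippo list 12 were within 2-fold (50%, near the 47.3% of all genes), 1 was higher in dog and 4 in armadillo. The called genes included the upstream regulator WWC1 at 402 CPM in dog and 11.8 in armadillo and the protocadherin DCHS1 at 11.1 CPM in dog and 884 in armadillo (79.7-fold, interval 68.4 to 93.3). Of 23 semaphorin, plexin and neuropilin genes 6 were higher in armadillo and none in dog, and of 17 ephrin, Eph, SLIT and ROBO genes 6 and 2: the semaphorins SEMA3F and SEMA4C were 29.1-fold and 23.2-fold and EPHB4, a venous receptor, 8.500-fold higher in armadillo, against EPHA1 at 212 CPM in dog and 14.3 in armadillo. Of 14 Notch genes 1 was called in each direction, DTX4 towards dog and the ligand JAG1 towards armadillo at 37.3 CPM in dog and 209 in armadillo.

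Interferon signalling was balanced as a list, with 3 of 30 genes higher in dog, 7 in armadillo and 16 within 2-fold. Its transducers were unequal. The kinase TYK2 stood at 152 CPM in dog and 7.78 in armadillo (19.5-fold, interval 15.9 to 24.3). STAT2, a transcription factor of the type I response, stood at 43.7 CPM in dog and 239 in armadillo and IRF1 at 29.4 CPM in dog and 144 in armadillo. The induced genes IFIH1, DDX58, IFI44L and DTX3L were within 2-fold. NF-kB and TNF receptor genes were mostly armadillo-sided where called, 10 of 28 against 1 in dog (TRAF4), and the list's median lay 2.38-fold towards armadillo. Over the 19 genes that reach 5 CPM in both species the median log2 fold was 0.184, towards dog. That limit also drops genes that are low in 1 species and high in the other, so it cannot show what the direction rests on. The decoy receptor TNFRSF11B stood at 3.55 CPM in dog and 292 in armadillo and RELB of the non-canonical branch at 8.67 CPM in dog and 76.9 in armadillo, while MYD88, CHUK, TBK1 and RIPK1 were within 2-fold.

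Few immune cell genes met the rule, and those called were higher in armadillo: 3 of 4 macrophage and myeloid genes and 4 of 6 T, NK and B cell genes, but none of the 3 mast cell, platelet and red cell genes. CSF1R, the macrophage growth factor receptor, stood at 7.88 CPM in dog and 126 in armadillo and LCK, the kinase of the T cell receptor, at 2.04 CPM in dog and 29.7 in armadillo, the last a count of 31 reads in dog and 351 in armadillo. Of 10 tolerance-related genes 6 were higher in armadillo and none in dog. Galectin LGALS1 stood at 29.1 CPM in dog and 1363 in armadillo, and the ectoenzymes ENTPD1 and NT5E, which turn extracellular ATP into adenosine, at 2.04 CPM in dog and 276 in armadillo and 12.3 CPM in dog and 225 in armadillo. The checkpoint ligand CD274 was near equality at 21.9 CPM in dog and 15.4 in armadillo. Beta-2-microglobulin B2M, the light chain of MHC class I, stood at 126 CPM in dog and 636 in armadillo, beside the loading chaperones CALR and PDIA3 within 2-fold.

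Among regulators of steroid and retinoid response, the receptor co-chaperone FKBP4, which matures the progesterone receptor, stood at 1104 CPM in dog and 70.8 in armadillo (15.6-fold), and its competitor FKBP5 at 52.1 CPM in dog and 182 in armadillo. The p160 coactivators NCOA2 and NCOA3 were within 2-fold and NCOA1 was 7.21-fold higher in armadillo. Retinoic acid is made by ALDH1A enzymes, read by RAR receptors and cleared by CYP26 enzymes. ALDH1A1 and ALDH1A2 were 40.9-fold and 10.1-fold higher in armadillo, RARB stood at 6.11 CPM in dog and 72.1 in armadillo and CYP26B1 at 33.5 CPM in dog and 144 in armadillo, while RDH10 and the retinol receptor STRA6 were within 2-fold. Homeobox genes of the HOX clusters divided by cluster where called: HOXA3, HOXA5 and HOXB6 were 4.897-fold, 7.48-fold and 4.74-fold higher in dog and HOXD8 and HOXD10 7.29-fold and 7.903-fold higher in armadillo. Their cofactors MEIS2 and PBX3 were 18.8-fold and 7.07-fold higher in armadillo.

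Immediate early and clock genes lay on the armadillo side. FOS, EGR1 and NR4A3, which respond to stimuli within minutes, including the handling of tissue, stood at 27.9 CPM in dog and 184 in armadillo, 7.49 CPM in dog and 73.4 in armadillo and 1.97 CPM in dog and 39.4 in armadillo, and of 11 such genes 5 were higher in armadillo and none in dog. No source used here gives the samples' handling or collection times, and their part was not tested. In the clock list PER3, NR1D2 and CRY2 were 15.7-fold, 8.61-fold and 6.005-fold higher in armadillo, and PER1 and CRY1 were within 2-fold.

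Much of the machinery that every cell uses was shared, though not all of it. Of 15 cytosolic tRNA synthetases, which charge tRNAs with amino acids, none was called and 13 were within 2-fold, against 47.3% of all genes. EPRS stood at 487 CPM in dog and 477 in armadillo and KARS at 459 CPM in dog and 437 in armadillo. Of 24 exosome and mRNA decay genes none was called and 19 were within 2-fold, and of 10 citric acid cycle genes 9. Of 27 proteasome subunits 19 were within 2-fold, with PSMB4 at 298 CPM in dog and 275 in armadillo and PSMC5 at 324 CPM in dog and 282 in armadillo. For N-glycosylation in the endoplasmic reticulum (ER) the count was 14 of 19, with the transferase subunits STT3A at 336 CPM in dog and 360.0 in armadillo and STT3B at 166 CPM in dog and 168 in armadillo. It was 11 of 15 for vesicle coats, 8 of 9 for peroxisome biogenesis and 9 of 11 for sodium, proton and bicarbonate transport. Other core lists did not exceed the share of all genes: 8 of 20 autophagy genes and 6 of 13 proton pump subunits were within 2-fold, as were 9 of 21 nuclear pore genes. Of 19 cytosolic ribosomal protein genes 5 were higher in armadillo and 1 in dog, with 10 within 2-fold. ER folding held 24 of 36 genes within 2-fold, and its stress-induced factor DDIT3 stood at 3.02 CPM in dog and 30.9 in armadillo. Among the abundant genes that agreed within 1.5-fold were RPL8 (1673 CPM in dog and 2219 in armadillo), the RNA-binding protein HDLBP (1406 CPM in dog and 1213 in armadillo), the ER chaperone CALR (1001 CPM in dog and 1395 in armadillo), the splicing protein SRRM2 (994 CPM in dog and 1366 in armadillo), the basement membrane protein TINAGL1 (881 CPM in dog and 1080.3 in armadillo) and the ubiquitin-activating enzyme UBA1 (724 CPM in dog and 1000.2 in armadillo).

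Zinc finger proteins of the ZNF series, a fast-growing family of DNA-binding repressors, also leaned to agreement: of 97 compared, 58 were within 2-fold, 3 higher in dog and 10 in armadillo. ZNF532 stood at 172 CPM in dog and 259.9 in armadillo, ZNF238 at 89.6 CPM in dog and 9.301 in armadillo and ZNF219 at 2.17 CPM in dog and 59.9 in armadillo. Transcription by RNA polymerase II and Mediator gave 19 of 32 within 2-fold, 3 higher in dog (POLR2E, POLR2H and MED28) and none in armadillo.

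Lists of mitochondrial ribosomes and respiration leaned to dog by their medians. Their called genes are read against the 11.0% of all genes that were higher in dog. Of 5 compared genes of the mitochondrial ATP synthase, 2 were higher in dog, with a median of 2.78-fold. Of 51 mitochondrial ribosomal protein genes 41 lay on the dog side, with a median of 1.69-fold. Of the 51, 7 were called there (13.7%, near the share of all genes) and 1 in armadillo. Among 11 genes of respiratory complexes II, III and IV none was called, with a median of 1.79-fold towards dog. Of 21 subunits of complex I, the entry point of the respiratory chain, 2 were higher in dog (9.52%, also near the share of all genes). They were NDUFB2 at 71.9 CPM in dog and 3.298 in armadillo and NDUFS6 at 105 CPM in dog and 16.3 in armadillo. NDUFS1 stood at 142 CPM in dog and 131 in armadillo. These medians changed with the scaling: with no step beyond the library total every list shifted by 0.321 on the log2 scale towards dog.

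**Figure D5:**
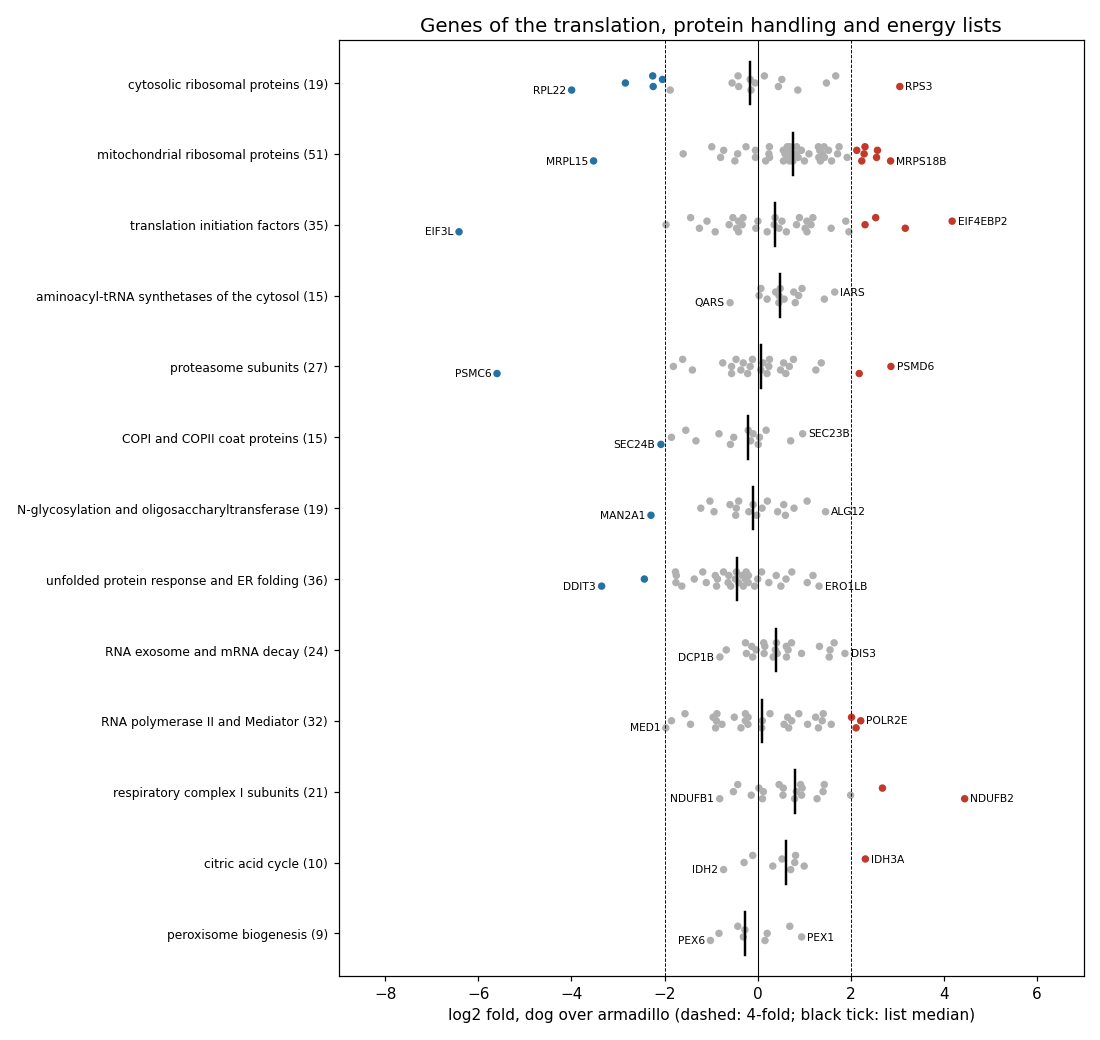
Log2 fold (dog over armadillo, x axis) of every compared gene in 13 lists of translation, protein handling, RNA decay, transcription and energy metabolism; colours, dashed lines and ticks have the same meaning as in the other list plots. Medians lie within 1 of 0 in all 13 rows, and single subunits such as EIF3L, PSMC6 and MRPL15 stand far to the left of the other members of their row.

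Within these complexes single subunits stood far from their partners. EIF3L stood at 13.3 CPM in dog and 1138 in armadillo, 85.4-fold higher in armadillo, interval 74.3 to 98.6, while the other compared subunits of the initiation factor EIF3, among them EIF3A (812 CPM in dog and 529 in armadillo), EIF3D (438 CPM in dog and 599 in armadillo) and EIF3I (232 CPM in dog and 231 in armadillo), were within 4-fold. The proteasome ATPase PSMC6 stood at 2.43 CPM in dog and 118 in armadillo beside its ring partners PSMC4 at 184 CPM in dog and 121 in armadillo and PSMC5, and the dynactin subunit DCTN2 at 2.101 CPM in dog and 283 in armadillo beside DCTN3 at 93.6 CPM in dog and 64.6 in armadillo. Ribosomal protein genes RPL22 and RPS3 were 15.97-fold higher in armadillo and 8.305-fold higher in dog. For such genes a level also depends on how much of the gene each species' gene model covers and on reads shared with near-identical copies. A second dog entry, under a protein name spelled exactly as the gene symbol, was found for 5 of the compared genes (LIPG, PGS1, SMS, GNAQ and RAN). Second entries under a protein name spelled otherwise were not searched for, so 5 is the fewest there could be. The nuclear transport GTPase RAN stood at 4.47 CPM in dog and 285 in armadillo, with 6654 further dog reads under its second entry. Both tables give reads for gene models of their own species, and model lengths could be worked out for dog only, so the part of these differences in the folds was not tested for armadillo. Across the 6639 genes the fold had a Spearman correlation of -0.0573 with dog model length, and median dog lengths were 1530 bases for genes higher in dog, 1717 for those higher in armadillo and 1641 for the rest.

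Cytoskeletal, energy store and G protein lists leaned to armadillo. Of 30 microtubule genes 7 were higher in armadillo, with the neuronal-type proteins MAP1A and MAP1B at 8.01 CPM in dog and 306 in armadillo and 2.95 CPM in dog and 313 in armadillo, and 4 in dog, with MAP7, an epithelial microtubule protein, at 75.6 CPM in dog and 6.34 in armadillo. In glycogen metabolism 3 of 11 were higher in armadillo, STBD1, PHKA2 and GYG1, the last (the primer of glycogen chains) at 18.5 CPM in dog and 154 in armadillo. Of 19 G protein and RGS genes 6 were higher in armadillo and none in dog, while GNAS, which couples receptors to adenylyl cyclase, stood at 1792 CPM in dog and 3739 in armadillo.

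Several of the largest differences were not named above. C10ORF57 had the second-ranked dog-side fold, at 934 CPM in dog and 5.92 in armadillo (158-fold, interval 125 to 203). The gene CPM, a membrane carboxypeptidase, was 75.5-fold higher in dog, and the lipid-transfer protein PCTP stood at 292 CPM in dog and 4.82 in armadillo. C2CD2, AZI1, SPATA18, EPB41L4B and OTUB2 were 65.4-fold, 55.7-fold, 53.2-fold, 53.2-fold and 47.00-fold higher in dog. The collagen COL21A1 was 138-fold higher in armadillo, and C7ORF58, PDLIM3, C13ORF33 and GPRASP2 were 133-fold, 128-fold, 125-fold and 125-fold higher there. COL21A1 and PDLIM3 are already counted in the collagen and contractile lists above. The fatty acid carrier FABP4 stood at 481 CPM in dog and 24.6 in armadillo, the proline dehydrogenase PRODH at 436 CPM in dog and 24.5 in armadillo and the non-muscle myosin MYH14 at 403 CPM in dog and 23.3 in armadillo, each higher in dog. On the armadillo side MFGE8, a milk fat globule protein that bridges dying cells to phagocytes, stood at 111 CPM in dog and 2252 in armadillo, the sulfhydryl oxidase QSOX1 at 38.2 CPM in dog and 992 in armadillo, the prohormone-processing carboxypeptidase CPE at 14.5 CPM in dog and 643 in armadillo, the vitamin B12 carrier TCN2 at 29.2 CPM in dog and 639 in armadillo and the aryl hydrocarbon receptor AHR at 10.6 CPM in dog and 178 in armadillo. Calcium-binding and membrane families joined them: S100A6 was 30.7-fold, ANXA3 13.5-fold and the tetraspanin CD9 29.9-fold higher in armadillo, while ANXA5 stood at 318 CPM in dog and 379 in armadillo. The deposited tables give no genome coordinates, and gene sequences were not used here.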

How the data were processed

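One mRNA library per species was compared, dog with armadillo. The deposited dog table gives estimated counts of reads per gene (516 of the values are not whole, and all were rounded) beside a score of mapped bases, and a relative abundance score from which gene-model lengths were worked out; the deposited armadillo table gives read counts of genes with at least 1 read. Bowtie is named in the submitters' processing notes; its version, the genome builds and annotation are stated by no source used here. The total line of each table was left out. CPM was the count over the summed gene counts, and genes with 2 CPM in both libraries were scaled by the median of ratios (factors 0.895 for dog and 1.12 for armadillo), with no pseudocount. Counts were not corrected for gene length, so levels are compared between species for 1 gene and not between genes. Genes were called at 4-fold; no test was made. Exact 95% Clopper-Pearson intervals cover counting error only.

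The members and lists were chosen with earlier results of these data known. Genes named were drawn from the 20 largest folds in each direction, the 20 highest levels within 1.5-fold (not all of these are printed), and in each list the largest folds, the highest levels and the called genes that went against the rest; others were named for their role after their values were seen. Alternatives covered scaling (including TMM in edgeR 4.0.16 under R 4.3.3), the minimum level, a pseudocount, the fold limit, the interval and duplicate entries. The comparison, in Python 3.11.15 with pandas 2.3.3 and SciPy 1.17.1, was tested on simulated data. Some genes are not reported here.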

Additional observations from a re-analysis of the deposited data

How the results depend on the processing

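No paired analysis was possible because each species has 1 library, and for the same reason no library could be left out. The counts of genes higher in dog (728) and in armadillo (874) moved by more than 1.5 times under 4 of 14 alternatives each: at a minimum of 10 CPM they were 332 and 433, with no minimum level 1187 and 1609, at an 8-fold limit 275 and 449, and at a 2-fold limit 1709 and 1791. Without scaling beyond the library total they were 952 and 690, and scaled to the total of the compared genes 942 and 696, which turned the larger side to dog; 727 and 690 genes were called under every scaling. The number of lists with a median of at least 2-fold (53) was 29 at a minimum of 10 CPM. Of these 53, 50 kept their direction under every alternative applied to medians (scaling, minimum level, pseudocount and duplicate entries). Of the 53, 24 also kept a median of at least 2-fold under all of these. The 3 lists that changed direction were the epithelial transcription factors (-0.179 at 10 CPM, over 7 genes), the NF-kB list (0.184 at 5 CPM, over 19 genes) and the chemokine list (0.745 at 5 CPM, over 2 genes), as log2 medians of dog over armadillo over fewer genes. The scalings shift every median by a common amount of at most 0.321 on the log2 scale. They could therefore not reverse a list at 2-fold or more. A list left with no gene was counted as keeping its direction. The medians of 16 lists near 0 changed sign under a scaling, so no direction is given for them. Genes near 2 CPM rest on about 27 or 28 reads, the fewest in either library.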

Other observations

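Genes that passed 2 CPM in only 1 of the libraries lie outside the comparison, and they hold further members of the same families. There were 1242 such genes, 862 on the armadillo side and 380 on the dog side, and the counts of lists below are read against that uneven split. Part of the split comes from how genes are listed. Genes at 0 are listed for dog but not for armadillo, so a gene at 0 in armadillo could not be paired. Of the 862, 153 are at 0 in dog. How much of the armadillo excess rests on this was not tested. Among WNT pathway genes the secreted potentiators exchanged places: RSPO2 had 3556 reads in dog and 8 in armadillo, and RSPO3 had 1 and 1643. The ligand WNT2 had 1 read in dog and 955 in armadillo, and the inhibitor DKK2 had 200 and 1. Thrombospondins did likewise, with THBS4 at 6034 reads in dog and 2 in armadillo and THBS2 at 1 and 2166. In dog, the elongase ELOVL6, which extends the fatty acids that SCD desaturates, had 2468 reads against 12. FGF9, a growth factor, had 439 reads in dog against 4, and the pathway's feedback genes DUSP5 and SPRED2 had 1108 against 7 and 1212 against 20.

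On the armadillo side ADAMTS8, a secreted protease, had 15750 reads against 2 in dog, and the matrix protease MMP7 1350 against 1. The chemokine CCL14 had 4094 reads against 4. Of 13 macrophage and myeloid genes on 1 side, 12 were on that of armadillo, including CD68 at 1233 reads against 22 and ITGAM at 310 against 2; SIGLEC1 was the exception at 7 against 51. Of 14 T, NK and B cell genes 11 were on the armadillo side, a share not far from that of all 1242, with IL7R at 455 against 7, and 3 on that of dog, BLNK and IKZF2 among them. Of 13 potassium channel genes 12 were on the armadillo side, KCNG1 standing at 801 reads against 1.

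The same group holds genes that every cell uses. EEF2 (73236 reads), RPL7A (23688) and TPT1 (30559) of armadillo are listed at 0 in dog, and RPL10 had 16514 reads in dog against 1 in armadillo. Of the 862 genes on the armadillo side 153 are listed at 0 in dog. A count near 0 in this group is therefore given as listed, with no fold.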
